A study of Mus musculus with 16 samples.

Results

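The genes described here are those of transsulfuration and hydrogen sulfide handling: Cth, Cbs, Mpst, Ethe1, Cdo1, Csad, Suox, Ahcy and Mat2a. The list was drawn up with earlier results of these data known. Its members are the rows of the table of transcript abundance (TPM) whose gene symbol is 1 of these 9. This gave 10 of 46078 rows, since Mat2a is listed under a pair of identifiers. The second of these, ENSMUSG00000104463, was at 0 in all 16 libraries, so that 9 rows, 1 for each symbol, were among the 15014 genes tested. Total RNA depleted of ribosomal RNA was sequenced from kidneys of C57BL/6 mice aged 20 weeks, taken 72 h after an intraperitoneal injection and perfusion with buffered saline. Of the 4 groups of 4 libraries, BL_vehicle received saline (sodium chloride, 0.9%) and BL_cisplatin received cisplatin, both without preconditioning. CR_cisplatin received cisplatin after calorie restriction, for which the labels give 4 weeks before the injection. HP_cisplatin received it after hypoxia of 2, 4 and 8 h on 3 days in a row, and neither preconditioning was combined with saline. Cisplatin is a platinum drug used against tumours that injures the renal tubule, and the comparisons asked how the transcripts differed after it with and without each preconditioning.

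Methionine is activated to S-adenosylmethionine, which donates its methyl group and leaves homocysteine. Transsulfuration then moves the sulfur of homocysteine to cysteine through cystathionine. Cysteine is used for glutathione, is oxidised towards taurine or sulfate, or yields hydrogen sulfide, a gas that mitochondria oxidise. The proximal tubule of the kidney is rich in enzymes of amino acid metabolism, and hydrogen sulfide made by Cth has been linked to stress resistance in mice on restricted diets.

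TPM divide out transcript length and sum to 1000000 in each library, so levels may be set side by side between genes. Reads recovered from them came to at least 49174117 to 62594474 per library, of which mitochondrial ribosomal RNA took 27.4 to 33.1%. Nuclear protein-coding genes held 25.4 to 25.7% of TPM in BL_vehicle and 20.5 to 22.7% in BL_cisplatin. Their share was 25.5 to 26.3% in CR_cisplatin and 22.5 to 25.5% in HP_cisplatin. Fits with the most abundant transcripts left out of the scaling are given below. Log2 fold changes compare group means of log2(TPM + 1), and their p-values, from limma, were adjusted by the Benjamini-Hochberg method for all 15014 genes, with a threshold of 0.05. Where a difference is given in folds, it is the ratio of mean TPM. Whether each library came from a mouse of its own is not stated in the labels, so p-values refer to the spread among these libraries, which may be technical. In these kidney homogenates, fewer cells of a type and less RNA per cell cannot be told apart. All values are of RNA and do not measure protein, enzyme activity or hydrogen sulfide. The HP_cisplatin libraries stood apart from each other: over the 10032 genes called between BL_cisplatin and BL_vehicle, with 0 at the vehicle mean and 1 at the BL_cisplatin mean, their median positions were 0.948, 0.384, 0.636 and 0.0234. HP_cisplatin 1 therefore lay near the BL_cisplatin libraries and HP_cisplatin 4 near the vehicle libraries, and calls of the members that leaving out 1 of them ended or moved by over 1.5 times are also given without it. Library titles begin with 1 of 2 codes. BL_cisplatin 1 to 4 and CR_cisplatin 1 carry the first and all others the second, so for BL_cisplatin against BL_vehicle or HP_cisplatin the code and the group cannot be told apart.

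Markers of several cell types moved with the genes described below. All 8 of the proximal tubule list (Slc34a1, Slc5a2, Slc5a12, Lrp2, Cubn, Slc22a6, Slc22a8 and Slc13a3) were lower in BL_cisplatin than in BL_vehicle. Their summed level was 2865 to 3614 TPM in BL_vehicle, 128 to 209.7 in BL_cisplatin and 2756 to 3378 in CR_cisplatin, and 271, 1758, 701 and 2855 in HP_cisplatin 1 to 4. The injury markers Havcr1 and Lcn2 together measured 0.734 to 2.32 TPM in BL_vehicle, 590.4 to 731 in BL_cisplatin, 0.951 to 4.38 in CR_cisplatin, and 781, 79.4, 510.3 and 1.08 in HP_cisplatin 1 to 4. Other markers moved too. All 4 of the thick ascending limb (median log2 fold change -2.51) and all 3 of the distal convoluted tubule (-3.26) were lower in BL_cisplatin than in BL_vehicle, as were 2 of 3 of the endothelium, both tested of the red blood cell, 2 of 4 of the collecting duct and 1 of 3 of the podocyte. Of 4 macrophage markers Cd68 was higher (4.39) and 2 were lower. These counts stand beside 28.8% of all genes tested that were lower and 38% that were higher in this comparison. The 1 of 3 for the podocyte was near the share of all genes. No marker of any list was at 0 in all libraries. What part these shifts had in the results below was not tested.

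Promoter sequences are shown for Csad and Cbs, the pair of members whose values ran most alike across libraries, for Ahcy, which moved with them, and for Ethe1, which did not. RefSeq promoter windows on GRCm38.p6, 250 bases before to 50 after a transcript start, matched 7 of the 9 symbols with 11 windows, and not Cth or Cdo1. Printed 5′ to 3′ are the bases outside the annotated gene. Capitals mark matches, on either strand, to the Sp1 motif GGGCGG or the E-box CACGTG.
Csad chr15:102205053-102205302 (minus strand): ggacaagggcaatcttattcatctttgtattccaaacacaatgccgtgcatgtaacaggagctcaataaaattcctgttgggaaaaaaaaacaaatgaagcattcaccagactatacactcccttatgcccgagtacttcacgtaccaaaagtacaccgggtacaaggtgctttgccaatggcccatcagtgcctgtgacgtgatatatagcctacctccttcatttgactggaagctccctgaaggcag
Cbs chr17:31637239-31637455 (minus strand): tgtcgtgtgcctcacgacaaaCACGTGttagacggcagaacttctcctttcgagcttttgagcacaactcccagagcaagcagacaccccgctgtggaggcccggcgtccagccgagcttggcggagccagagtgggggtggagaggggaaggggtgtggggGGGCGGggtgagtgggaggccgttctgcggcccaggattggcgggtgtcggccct
Ahcy chr2:155074498-155074747 (minus strand): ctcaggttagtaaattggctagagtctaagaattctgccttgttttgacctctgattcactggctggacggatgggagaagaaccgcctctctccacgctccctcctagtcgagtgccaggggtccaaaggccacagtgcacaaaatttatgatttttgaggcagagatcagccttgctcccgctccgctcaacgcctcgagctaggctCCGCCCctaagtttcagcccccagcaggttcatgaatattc
Ethe1 chr7:24587293-24587542 (plus strand): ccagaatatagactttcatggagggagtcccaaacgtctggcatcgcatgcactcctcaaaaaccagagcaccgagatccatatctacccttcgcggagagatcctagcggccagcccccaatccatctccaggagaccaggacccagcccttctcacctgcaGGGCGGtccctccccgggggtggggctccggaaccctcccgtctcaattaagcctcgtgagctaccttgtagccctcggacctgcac
The Sp1 letters occurred in 35.7% of all 32851 windows of this length and the E-box in 7.15%. In the Csad bases shown none of the 6 motifs searched was found, and a second Csad window held 1 Sp1 match. The others searched were the antioxidant response element TGACNNNGC (12.4% of windows), the cAMP response element TGACGTCA (1.79%), an ATF4 and C/EBP composite TGATGNAAN (3.95%) and the HNF1 motif GTTAATNAT (0.801%). Of these 4, a match was found for the members only in Mpst, in a window inside the annotated gene (78406551 to 78406850). There TGACATGGC started at base -12 from the transcript start of that window. The other Mpst windows held no match. A match describes letters in a window and shows no binding.

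The mean levels in BL_vehicle ran from Csad down to Suox. Csad, at 117 ± 10.6 TPM (SD, n = 4), and Mat2a, at 115 ± 10.4 (SD, n = 4), overlapped at the top, followed by Ahcy at 93.6 ± 3.06 and Cdo1 at 61.1 ± 7.40. Cth, at 48.1 ± 4.33, and Cbs, at 44.3 ± 3.53, overlapped each other, Mpst lay at 35.4 ± 2.32, and Ethe1, at 27.1 ± 4.18, and Suox, at 26.5 ± 3.13, overlapped at the bottom. The order in BL_cisplatin was another. Cdo1 stood first at 108 ± 10.4 TPM (SD, n = 4), above Mat2a at 78.8 ± 14.6, then Ahcy at 34.8 ± 2.11 and Ethe1 at 31.9 ± 2.68, which overlapped. Mpst (15.6 ± 2.06), Csad (14.8 ± 1.42), Cth (14.7 ± 2.46) and Cbs (12.5 ± 0.773) lay within a narrow band, where Csad had moved from the first place in BL_vehicle, and Suox was lowest at 6.75 ± 1.21. In CR_cisplatin the order was near that of BL_vehicle, with Mat2a at 121 ± 12.8, Csad at 109.9 ± 3.49, Ahcy at 101 ± 5.44 and Cdo1 at 61.9 ± 4.70 TPM (SD, n = 4) above the others. In HP_cisplatin the SDs were wide, as for Csad at 52.5 ± 38.98, Cth at 45.4 ± 17.7 and Ahcy at 76.7 ± 29.7 TPM (SD, n = 4), so only the values of single libraries describe this group.

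Mat2a and Ahcy, the members of the methionine cycle, were both lower after cisplatin alone. Mat2a (ENSMUSG00000053907, GRCm38 chromosome 6, 72432799 to 72439558, minus strand) encodes the catalytic subunit that makes S-adenosylmethionine in tissues other than liver. It measured 119, 113, 101 and 126 TPM in BL_vehicle 1 to 4 and 86.2, 65.2, 68.1 and 95.6 in BL_cisplatin 1 to 4. The groups did not overlap, but the difference was the smallest among the 7 members that were lower. The log2 fold change was -0.55 (SE 0.133, adjusted p = 0.00222), or 1.46-fold lower. With calorie restriction the values were 114, 139, 119 and 109.9 TPM, and with hypoxia 82.5, 109, 103 and 108. All 4 CR_cisplatin libraries and 3 of the 4 HP_cisplatin libraries were above every BL_cisplatin library, while HP_cisplatin 1 lay among them. Against BL_cisplatin, Mat2a was higher in CR_cisplatin (log2 fold change 0.62, adjusted p = 0.000975). With the title code as a term, an estimate that rests on CR_cisplatin 1 alone, it was 0.55 and did not pass. For HP_cisplatin the value was 0.36 with an adjusted p of 0.0541, and 0.45 (adjusted p = 0.0102) without HP_cisplatin 1.

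Ahcy (ENSMUSG00000027597, chromosome 2, 155059310 to 155074497, minus strand) encodes adenosylhomocysteinase, which releases homocysteine. Its level was 93.4, 97.1, 89.7 and 94.4 TPM in BL_vehicle and 33.6, 33.5, 34.1 and 37.9 in BL_cisplatin. The BL_cisplatin libraries lay far below the vehicle range, with a log2 fold change of -1.41 (SE 0.236, adjusted p = 0.000167). CR_cisplatin 1 to 4 measured 94.97, 108, 99.97 and 99.8 TPM, and HP_cisplatin 1 to 4 34.3, 100.1, 78.4 and 94.02. HP_cisplatin 1 was among the BL_cisplatin values, HP_cisplatin 3 stood between the groups, and the other two were near vehicle. The difference from BL_cisplatin was 1.51 for CR_cisplatin (adjusted p = 0.000114) and 1.01 for HP_cisplatin (adjusted p = 0.00979).

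**Figure D1:**
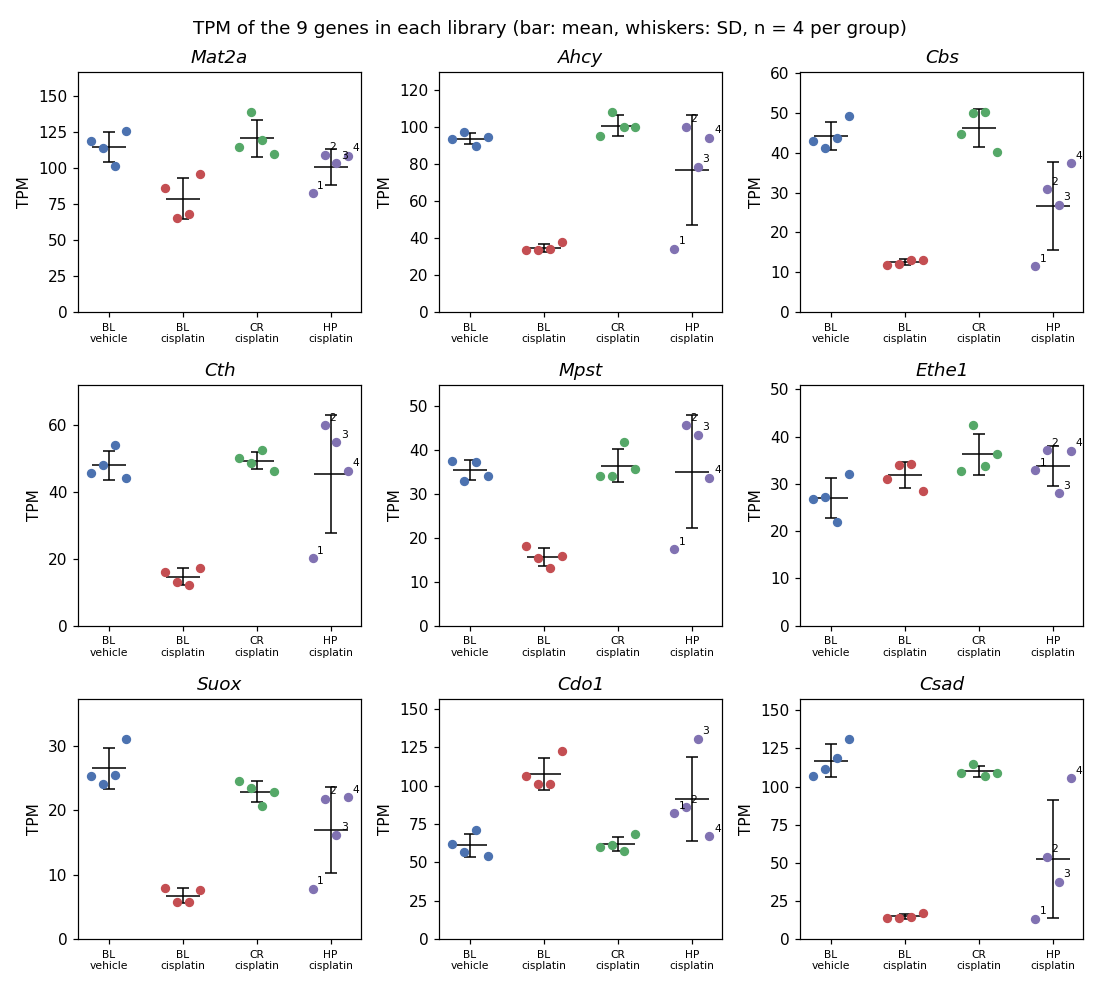
TPM of each of the 9 genes in each of the 16 libraries, 1 point per library, with the mean as a bar and the SD as whiskers (n = 4 per group); numbers beside the HP_cisplatin points are replicates. In 7 panels the BL_cisplatin points lie below all BL_vehicle points, Cdo1 shows the opposite order, and the Ethe1 points of these groups overlap; the SD of HP_cisplatin is larger than that of BL_vehicle in each panel, though hardly for Ethe1.

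Transcripts of both transsulfuration enzymes were lower after cisplatin alone, to a similar degree. Cbs (ENSMUSG00000024039, chromosome 17, 31608894 to 31637238, minus strand), whose product condenses homocysteine with serine, measured 43.03, 41.2, 43.6 and 49.3 TPM in BL_vehicle and 11.7, 11.9, 13.1 and 13.2 in BL_cisplatin. Cth (ENSMUSG00000028179, chromosome 3, 157894248 to 157925077, minus strand), whose product splits cystathionine to cysteine, measured 45.8, 48.2, 54.1 and 44.2 TPM and 16.1, 12.97, 12.2 and 17.4 in the same groups. Neither gene overlapped between these groups. Cbs was 3.55-fold lower (log2 fold change -1.75, SE 0.244, adjusted p = 6.14e-05) and Cth 3.28-fold lower (-1.66, SE 0.247, adjusted p = 8.14e-05). In CR_cisplatin, Cbs measured 44.7, 50.02, 50.3 and 40.2 TPM and Cth 50.3, 48.7, 52.5 and 46.3. These overlapped the vehicle values for both genes. Cbs was 1.81 and Cth 1.70 above BL_cisplatin on the log2 scale (adjusted p = 6.22e-05 and 8.05e-05).

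With hypoxia before cisplatin, Cbs was lower than in BL_vehicle, while Cth did not pass that test. Cth measured 20.1, 60.01, 54.96 and 46.3 TPM in HP_cisplatin 1 to 4, while Cbs measured 11.5, 30.8, 26.96 and 37.4. For Cth, HP_cisplatin 2 and 3 lay above all 4 vehicle libraries, HP_cisplatin 4 lay within them, and HP_cisplatin 1 was below them but above every BL_cisplatin library. For Cbs, all 4 were below the lowest vehicle library and HP_cisplatin 1 was also below the lowest BL_cisplatin library. Against BL_cisplatin, Cth rose by 1.47 (SE 0.247, adjusted p = 0.00432) and Cbs by 0.92 (SE 0.244, adjusted p = 0.0154) on the log2 scale. Against BL_vehicle the 95% interval for Cth was -0.71 to 0.34 around -0.19 (adjusted p = 0.577), which holds differences in either direction. Without HP_cisplatin 1 that value was 0.15. Cbs was lower than in BL_vehicle (-0.82, adjusted p = 0.0265, and -0.48, adjusted p = 0.0245, without HP_cisplatin 1), but not without HP_cisplatin 3 (adjusted p = 0.0637) or any single BL_vehicle library (from 0.0509 to 0.0627).

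Mpst followed Cth rather closely in level across the libraries. Mpst (ENSMUSG00000071711, chromosome 15, 78406416 to 78414013, plus strand) encodes mercaptopyruvate sulfurtransferase, a further source of hydrogen sulfide. It measured 37.4, 32.8, 37.3 and 34.1 TPM in BL_vehicle, 18.2, 15.5, 13.1 and 15.8 in BL_cisplatin and 34.00, 34.1, 41.8 and 35.7 in CR_cisplatin. BL_cisplatin stood below both other groups without overlap. The log2 fold change against BL_vehicle was -1.14 (SE 0.220, adjusted p = 0.000452), and CR_cisplatin was 1.17 above BL_cisplatin (adjusted p = 0.000371). HP_cisplatin 1 to 4 measured 17.3, 45.6, 43.4 and 33.6 TPM. HP_cisplatin 2 and 3 were above every vehicle and CR_cisplatin library, and HP_cisplatin 1 was within the BL_cisplatin range. The difference from BL_cisplatin was 1.03 (SE 0.220, adjusted p = 0.00731). Against BL_vehicle it was -0.10 (interval -0.57 to 0.37), and 0.19 without HP_cisplatin 1. Tst, a related sulfurtransferase gene, begins 509 bases from the start of Mpst on the opposite strand and does not overlap it. Tst was also lower in BL_cisplatin (-1.39, adjusted p = 9.88e-05), and its levels in HP_cisplatin 1 to 4 were 23.1, 66.3, 41.2 and 51.6 TPM against 48.7 to 54.5 in BL_vehicle.

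The mitochondrial oxidation genes Ethe1 and Suox did not move alike. Ethe1 (ENSMUSG00000064254, chromosome 7, 24587543 to 24608925, plus strand) encodes the persulfide dioxygenase that follows the first oxidation of sulfide. It measured 26.9, 27.2, 21.9 and 32.2 TPM in BL_vehicle and 30.9, 33.9, 34.1 and 28.5 in BL_cisplatin. These overlapped, and the difference of 0.24 (SE 0.121, interval -0.022 to 0.50) did not pass with limma (adjusted p = 0.0972). It passed without BL_vehicle 4 (0.32, adjusted p = 0.0332) and with the most abundant transcripts left out of the scaling (0.39, adjusted p = 0.0161). CR_cisplatin measured 32.6, 42.4, 33.8 and 36.4 TPM and HP_cisplatin 32.9, 37.1, 28.02 and 36.98. The CR_cisplatin libraries were all above the BL_vehicle libraries, with the lowest of the former at 32.6 and the highest of the latter at 32.2. That difference was 0.42 (SE 0.121, unadjusted p = 0.00385, adjusted p = 0.823 with limma), so it did not pass over all genes.

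Suox (ENSMUSG00000049858, chromosome 10, 128669894 to 128674073, minus strand) encodes sulfite oxidase, which carries out the last step to sulfate. It measured 25.3, 24.1, 25.5 and 31.1 TPM in BL_vehicle and 7.91, 5.71, 5.70 and 7.67 in BL_cisplatin. The groups did not overlap, and Suox was 3.93-fold lower (log2 fold change -1.84, SE 0.234, adjusted p = 4.78e-05). CR_cisplatin had 24.5, 23.5, 20.7 and 22.9 TPM and HP_cisplatin 7.82, 21.8, 16.2 and 22.02. All HP_cisplatin libraries were below the vehicle range, and HP_cisplatin 1 was within that of BL_cisplatin. Against BL_cisplatin the difference was 1.64 for CR_cisplatin (adjusted p = 7.49e-05) and 1.13 for HP_cisplatin (adjusted p = 0.00685). HP_cisplatin was lower than BL_vehicle (-0.71, adjusted p = 0.0384), but not without HP_cisplatin 1 (-0.40, adjusted p = 0.0609), HP_cisplatin 3 (-0.72, adjusted p = 0.0863) or any single BL_vehicle library (adjusted p from 0.0651 to 0.0916).

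Transcripts for the successive steps from cysteine to hypotaurine moved in opposite directions. Cdo1 (ENSMUSG00000033022, chromosome 18, 46713193 to 46728395, minus strand) encodes cysteine dioxygenase, which oxidises cysteine to its sulfinate. It measured 62.2, 56.9, 70.99 and 54.2 TPM in BL_vehicle and 106, 101, 101 and 123 in BL_cisplatin. It rose 1.76-fold without overlap, and no other member was called higher with limma on all libraries and this scaling (log2 fold change 0.81, SE 0.159, adjusted p = 0.000491). Csad (ENSMUSG00000023044, chromosome 15, 102176999 to 102204724, minus strand) encodes the decarboxylase that turns this sulfinate into hypotaurine. Its values were 107, 112, 119 and 131 TPM and 13.9, 14.1, 14.4 and 16.96 in the same groups. Csad had the largest fall of the members, 7.89-fold (log2 fold change -2.90, SE 0.400, adjusted p = 5.93e-05).

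With calorie restriction both had values that overlapped vehicle, at 60.3, 61.6, 57.5 and 68.5 TPM for Cdo1 and 109, 115, 107 and 109 for Csad. Cdo1 was -0.79 and Csad 2.81 from BL_cisplatin on the log2 scale (adjusted p = 0.000626 and 7.39e-05). In the hypoxia group Cdo1 measured 82.04, 85.8, 130.4 and 66.8 TPM and Csad 13.2, 53.9, 37.6 and 105. For Cdo1, HP_cisplatin 3 was the highest of all 16 libraries, 1 and 2 lay between the vehicle and BL_cisplatin ranges, and 4 was within the vehicle range. For Csad, all 4 were below the vehicle range and HP_cisplatin 1 was below the BL_cisplatin range too. Cdo1 was -0.27 from BL_cisplatin (adjusted p = 0.197, not passing) and 0.54 from BL_vehicle (adjusted p = 0.0264). Without HP_cisplatin 3 the first of these passed (-0.46, adjusted p = 0.0200) and the second did not (0.35, adjusted p = 0.0724). Csad rose by 1.42 against BL_cisplatin (adjusted p = 0.0201), but was -1.48 from BL_vehicle (adjusted p = 0.0199), and -0.95 (adjusted p = 0.0289) without HP_cisplatin 1. Fat also holds much Cdo1, and the summed adipocyte markers Adipoq, Plin1 and Fabp4 were 4.36, 5.46, 5.30 and 91.5 TPM in BL_cisplatin 1 to 4, against 4.86, 4.67, 29.1 and 4.55 in BL_vehicle 1 to 4. They were 3.14, 58.8, 8.38 and 59.5 TPM in HP_cisplatin 1 to 4. None of these 3 markers was called in any comparison of BL_cisplatin or HP_cisplatin with BL_vehicle, where Plin1 was 0.65 and 1.28 (adjusted p = 0.597 and 0.354) and, in the second, Adipoq 1.49 (adjusted p = 0.344), on the log2 scale with limma. The hepatocyte markers Alb, Apoa2 and Ttr were considered because several of these enzymes abound in liver. All 3 were lower in BL_cisplatin than in BL_vehicle, where 28.8% of all genes tested were lower. The log2 fold changes were -3.23 for Ttr, -1.15 for Apoa2 and -1.10 for Alb. Their sum was 59.96 to 98.9 TPM in BL_vehicle, 7.18 to 13.1 in BL_cisplatin, 31.3 to 103 in CR_cisplatin, and 7.33, 23.5, 16.3 and 46.2 in HP_cisplatin 1 to 4. Alb did not exceed 3.55 TPM in any library. The part of either set of markers in these results was not tested.

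A pair of within-library ratios, chosen after their values were seen and given without a test, shows these shifts in single libraries. The ratio of Cdo1 to Csad in TPM was 0.413 to 0.598 in BL_vehicle, 7.01 to 7.61 in BL_cisplatin and 0.536 to 0.628 in CR_cisplatin. It was 6.22, 1.59, 3.47 and 0.634 in HP_cisplatin 1 to 4, spread between the vehicle and BL_cisplatin values. The ratio of Cth to Cbs was 0.896 to 1.24 in BL_vehicle, 0.931 to 1.37 in BL_cisplatin and 0.973 to 1.15 in CR_cisplatin, which all overlapped. In HP_cisplatin it was 1.75, 1.95, 2.04 and 1.24, so that 3 of the 4 libraries were above every library of the other groups. HP_cisplatin 1 was among those 3.

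**Figure D2:**
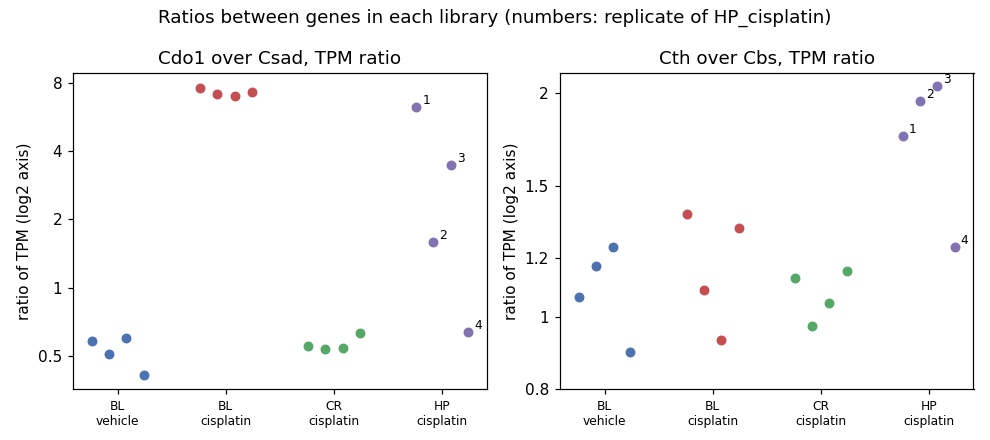
Ratios of TPM within each library on log2 axes, for Cdo1 over Csad and for Cth over Cbs, by group, with HP_cisplatin replicates numbered. The Cdo1 over Csad points of BL_cisplatin lie from 7.01 to 7.61 and those of BL_vehicle from 0.413 to 0.598, and the Cth over Cbs points of HP_cisplatin 1 to 3 lie above all other libraries.

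Counted over the members, cisplatin without preconditioning called 8 of 9 with limma, 7 lower and 1 higher, where 66.8% of all genes tested were called (28.8% lower and 38% higher). The same 8 did not overlap between the groups, against 63.5% of all genes. The share called in either direction is thus not far from that of all genes, while 7 of 9 lower stands beside 28.8%. Since the members were chosen with earlier results of these data known, this and the counts below describe them and test nothing. The median log2 fold change was -1.41 over the members and 0.084 over all genes. Leaving the most abundant transcripts out of the scaling moved the median of all genes up by 0.17 and the share of calls that were higher from 56.9% to 68.7%, while with voom on the recovered reads it was 49.8%. No member turned sign with abundant transcripts left out. With the title code as a term, an estimate that rests on CR_cisplatin 1 alone, Cth, Cbs, Csad and Suox passed. Mpst (-1.02, adjusted p = 0.0934), Cdo1 (adjusted p = 0.0614), Ahcy (0.0584) and Mat2a (0.195) did not.

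With calorie restriction before cisplatin, 8 of 9 members differed from cisplatin alone, 7 higher and Cdo1 lower, where 67.3% of genes were called (29.8% higher and 37.4% lower). These 8 did not overlap (64.8% of all genes). Of them, Mat2a (0.55) did not pass with the title code as a term, an estimate that rests on CR_cisplatin 1 alone. Within the first title code, CR_cisplatin 1 alone differed from the BL_cisplatin mean by 2.80 for Csad, 1.76 for Cbs, 1.73 for Cth, 1.08 for Mpst and -0.82 for Cdo1 on the log2 scale, a single library without a test. Against BL_vehicle, limma called 0 of 9 members, where 0.0533% of genes were called, and 1 member (Ethe1) had an unadjusted p under 0.05. With voom on the recovered reads 0 members were called, and 1 had an unadjusted p under 0.05. Ethe1 was also the only member whose groups did not overlap (9.16% of all genes). The intervals of the other 8 held 0, for example -0.49 to 0.57 for Cth and -0.94 to 0.77 for Csad. They leave room for differences of moderate size in either direction, but their width rests on a spread shared by all groups. For Csad the SD was 3.49 TPM in CR_cisplatin and 10.6 in BL_vehicle, against 38.98 in HP_cisplatin. Fitted on CR_cisplatin and BL_vehicle alone, limma called 80 genes and 0 members, with 2 members at an unadjusted p under 0.05.

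With hypoxia before cisplatin, 6 of 9 members were higher than with cisplatin alone and 0 lower with limma, where 29.4% of genes were called (16.4% higher and 13.1% lower). The 6 were Cth, Csad, Suox, Mpst, Ahcy and Cbs, in order of their log2 fold changes, from 1.47 to 0.92. Only Cth did not overlap between the groups (15.5% of all genes). HP_cisplatin 1 lay within or beyond the BL_cisplatin range for the other 5. Fitted on these groups alone, with their own spread, limma called 0 genes and 0 members, with adjusted p from 0.113 for Cth to 0.139 for Csad and 4273 genes at an unadjusted p under 0.05. With the title code as a term, Cth was 1.51 with an adjusted p of 0.464, and again no member passed. Without HP_cisplatin 1, the 6 ran from 1.27 for Cbs to 1.94 for Csad, with 1.81 for Cth, and all passed. Without HP_cisplatin 4, all 6 passed, with values from 0.73 for Cbs to 1.42 for Cth. Without HP_cisplatin 2, Cbs (adjusted p = 0.0516) and Csad (adjusted p = 0.0609) did not.

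Against BL_vehicle, with which HP_cisplatin shares the title code, 4 of 9 members differed, Cbs, Csad and Suox lower and Cdo1 higher, where 29.3% of genes were called (10.1% lower and 19.2% higher). Cbs, Csad and Suox did not overlap (15.2% of all genes). Fitted on these groups alone or on libraries of the second title code, 0 members passed (for Csad, adjusted p = 0.138 and 0.0682). Of these 4, 0 passed without HP_cisplatin 3 (adjusted p from 0.0630 for Csad to 0.0863 for Suox), 3 without HP_cisplatin 1, 1 (Csad) without BL_vehicle 1, 2 or 4, and 2 without BL_vehicle 3. Set against each other, calorie restriction and hypoxia differed in 3 of 9 members, Csad (1.39, adjusted p = 0.0306) and Cbs (0.88, adjusted p = 0.0286) higher and Cdo1 (-0.51, adjusted p = 0.0365) lower in CR_cisplatin, where 24.3% of genes were called (9.24% higher and 15% lower). Csad, Cbs and Mat2a did not overlap (9.8% of all genes). For Cth the difference was 0.23 (-0.30 to 0.76) and for Mpst 0.14 (-0.33 to 0.61), and without HP_cisplatin 1 both turned sign (-0.11 and -0.16). All 3 calls were lost without HP_cisplatin 1 (0.87 for Csad, 0.54 for Cbs and -0.55 for Cdo1, with adjusted p from 0.0724 to 0.0762), without HP_cisplatin 3 (-0.33 for Cdo1) and without any single CR_cisplatin library, while 2 members passed without HP_cisplatin 2 and 5 without HP_cisplatin 4. The comparisons above share their groups, so they are not independent of each other.

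**Figure D3:**
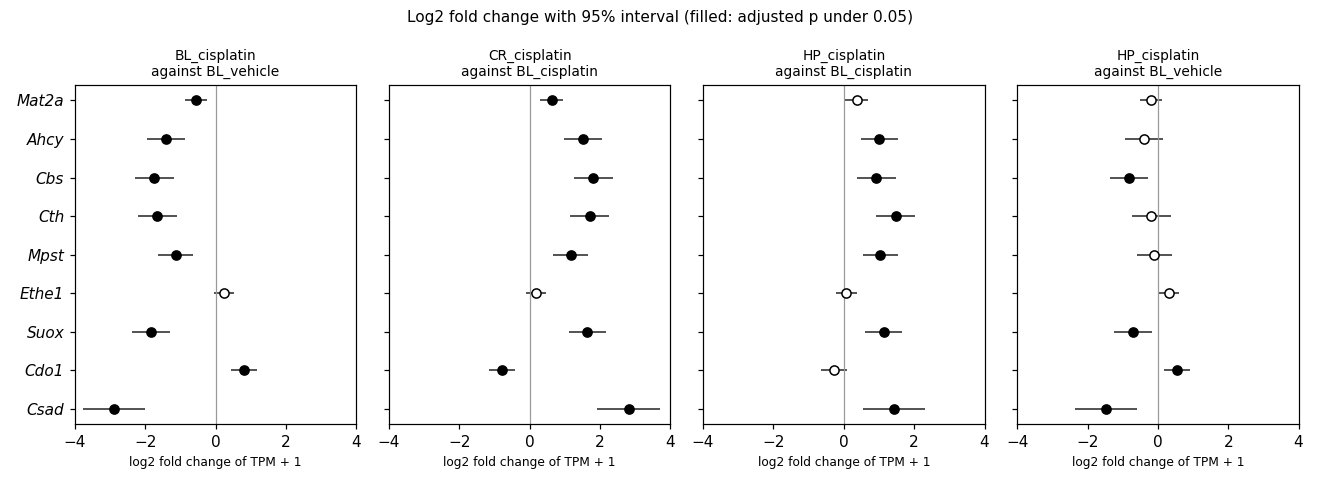
Log2 fold changes of TPM + 1 with their 95% intervals for the 9 genes in 4 comparisons, filled where the adjusted p was under 0.05. Csad lies farthest left in the first panel at -2.90, Cdo1 is the only filled point on the opposite side, and Cth and Mpst, far to the left in the first panel, are near 0 and open in the last.

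The hypoxia libraries differed between genes in how far each value lay from vehicle. On the scale from the vehicle mean (0) to the BL_cisplatin mean (1), Cth lay at 0.73, -0.19, -0.12 and 0.029 in HP_cisplatin 1 to 4 and Mpst at 0.87, -0.31, -0.25 and 0.064. In HP_cisplatin 2 and 3 both were on the far side of the vehicle mean, where the medians of all called genes were 0.384 and 0.636. For the 1190 genes called lower by more than 2-fold, as Cth and Mpst were, the medians were nearer vehicle, at 0.278 and 0.517. Of those genes, 11.4% and 2.52% lay at or past the vehicle mean. In these libraries 7.51% and 4.49% of the 10032 called genes had a lower position than Cth, and 5.01% and 2.88% a lower one than Mpst. Ahcy lay at 1.01, -0.068, 0.18 and -0.00447, Mat2a at 0.85, 0.12, 0.27 and 0.14 and Suox at 0.89, 0.14, 0.37 and 0.14. Cbs, at 1.06, 0.29, 0.40 and 0.13, and Csad, at 1.05, 0.38, 0.56 and 0.051, were nearer to the medians, with 49.6% and 40.9% of genes below Csad in HP_cisplatin 2 and 3. Cdo1 had another order, at 0.53, 0.61, 1.34 and 0.17, and was the only member to lie past the BL_cisplatin mean in HP_cisplatin 3. Ethe1 has no position, since it was not called between the reference groups. Positions are relative to both reference groups and are a description without a test.

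**Figure D4:**
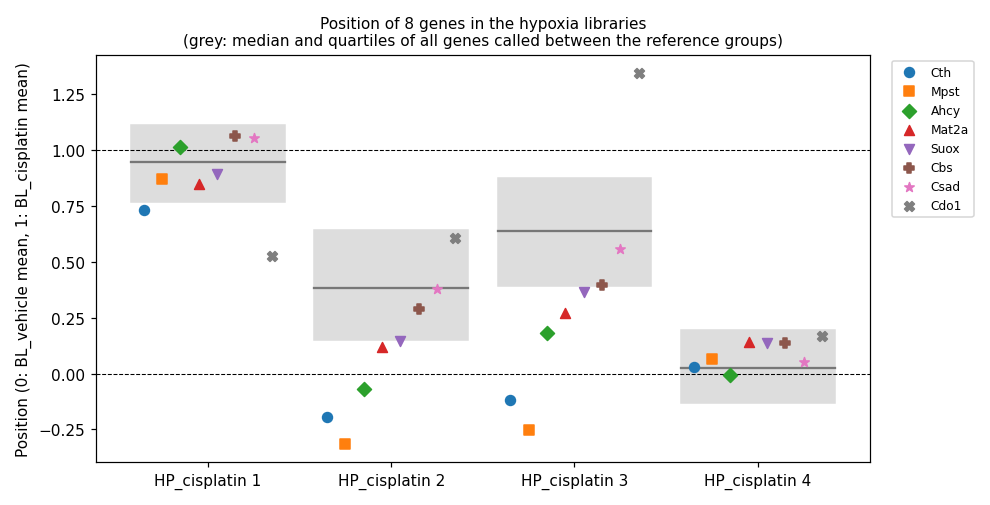
Position of 8 genes in each HP_cisplatin library, with 0 at the BL_vehicle mean and 1 at the BL_cisplatin mean of log2(TPM + 1), beside the median and quartiles of the 10032 genes called between these groups in grey. In HP_cisplatin 2 and 3, Cth and Mpst lie below 0 while the grey medians are at 0.384 and 0.636.

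Across all 16 libraries, the members fell into a few patterns of likeness, given as Pearson correlations of log2(TPM + 1) over libraries that share the 4 groups. Csad and Cbs correlated at 0.989 and Cth and Mpst at 0.983, while Cth and Cbs correlated at 0.911. Cdo1 was negative with each of the 7 that were lower after cisplatin, from -0.829 with Csad to -0.536 with Mpst, and Ethe1 lay between -0.129 and 0.0825 with all others. Among 13855 genes compared, those most like Cbs were Galnt11 (0.993) and Bdh2 (0.992), and for Csad Galnt11 (0.997) and Cml1 (0.997). Mpst was most like Cth itself and then Aldh1l1 (0.982), a folate enzyme. Suox was nearest to Fbp1 (0.992), an enzyme of gluconeogenesis, and Adk (0.992). Ahcy was nearest to Nlrp6 (0.994) and Bhmt2 (0.993), a methyltransferase of the same cycle. For Cdo1 they were Ulk1 (0.961), a kinase of autophagy, and Gbp7 (0.961), and for Mat2a Gbf1 (0.963) and Tbc1d19 (0.962). Ethe1 had no gene above 0.759, reached by Spsb3.

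Other genes of the pathway, from lists set by function with earlier results of these data known, gave the surroundings of these members. Their counts stand beside 66.8% of all genes called in BL_cisplatin against BL_vehicle (28.8% lower and 38% higher) and 29.4% in HP_cisplatin against BL_cisplatin (16.4% higher). In the second of these comparisons 0 genes of the whole table passed when the groups were fitted alone (4273 at an unadjusted p under 0.05) or with the title code as a term (1564), so its list counts rest on the fit of all libraries. Of 8 tested genes of the methionine cycle, 5 were lower and 1 higher in BL_cisplatin than in BL_vehicle (median log2 fold change -0.39), so that the share called was near that of all genes. Bhmt2 (-2.55) and Gnmt (-2.39), which uses up excess S-adenosylmethionine, fell most among those named (adjusted p = 8.31e-05 and 0.000162), while Ahcyl2 (-0.69) and Mat2b (-0.55), the regulatory partner of Mat2a, fell less. In HP_cisplatin against BL_cisplatin, 5 of the 8 were higher, with Bhmt2 at 1.89. Of 9 genes of sulfide and persulfide handling, 3 were lower and 1 higher in BL_cisplatin, a smaller share than that of all genes. Dao (-4.005), an amino acid oxidase that feeds the Mpst route, Tst (-1.39) and Cars2 (-0.52) fell, and Got1 rose (0.44) (adjusted p from 6.59e-05 to 0.00259). Sqrdl, which carries out the first oxidation of sulfide upstream of Ethe1 and was named after its values were seen, did not pass (-0.080, adjusted p = 0.472), with 24.95 to 28.1 TPM in BL_vehicle and 21.4 to 27.4 in BL_cisplatin.

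Among 6 tested genes of cysteine use, 2 were higher and 3 lower in BL_cisplatin, where 38% of all genes tested were higher and 28.8% lower. Gclc, the catalytic subunit of the first step of glutathione synthesis, rose by 1.92 (adjusted p = 8.01e-05), from 119.9, 70.7, 55.7 and 76.00 TPM in BL_vehicle to 276, 318, 265 and 327 in BL_cisplatin. The second enzyme of that route, Gss (-0.60), Fmo1 (-2.14), which makes taurine from hypotaurine, and the taurine carrier Slc6a6 (-1.04) fell (adjusted p = 3.57e-05, 5.16e-05 and 0.000383). Fmo1 and Slc6a6 thus fell as Csad did. Gclc was also higher in HP_cisplatin than in BL_vehicle (1.31, adjusted p = 0.0118) and did not pass against BL_cisplatin (-0.61, adjusted p = 0.114). Of 8 tested genes of cystine, methionine and sulfate transport, 7 were lower in BL_cisplatin and 0 higher (median -1.89). All 8 were higher in HP_cisplatin than in BL_cisplatin (median 1.24), where 16.4% of all genes tested were higher. In that comparison 0 genes passed with the groups fitted alone or with the title code as a term. Among those lower in BL_cisplatin were the cystine and aspartate carrier Slc7a13 (-6.41), the sulfate carrier Slc26a1 (-2.97), the cystine carrier Slc7a9 (-2.07) and Papss2 (-1.72), which activates sulfate. Of 6 regulators, 3 rose and 3 fell in BL_cisplatin. Nfe2l2, the antioxidant response factor, and Atf4 rose (1.32 and 0.61), while Hnf4a, a factor of tubule identity, and Ppargc1a fell (-2.01 and -1.11). With limma, 0 genes of these 5 lists were called between CR_cisplatin and BL_vehicle, and 3 at an unadjusted p under 0.05.

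**Figure D5:**
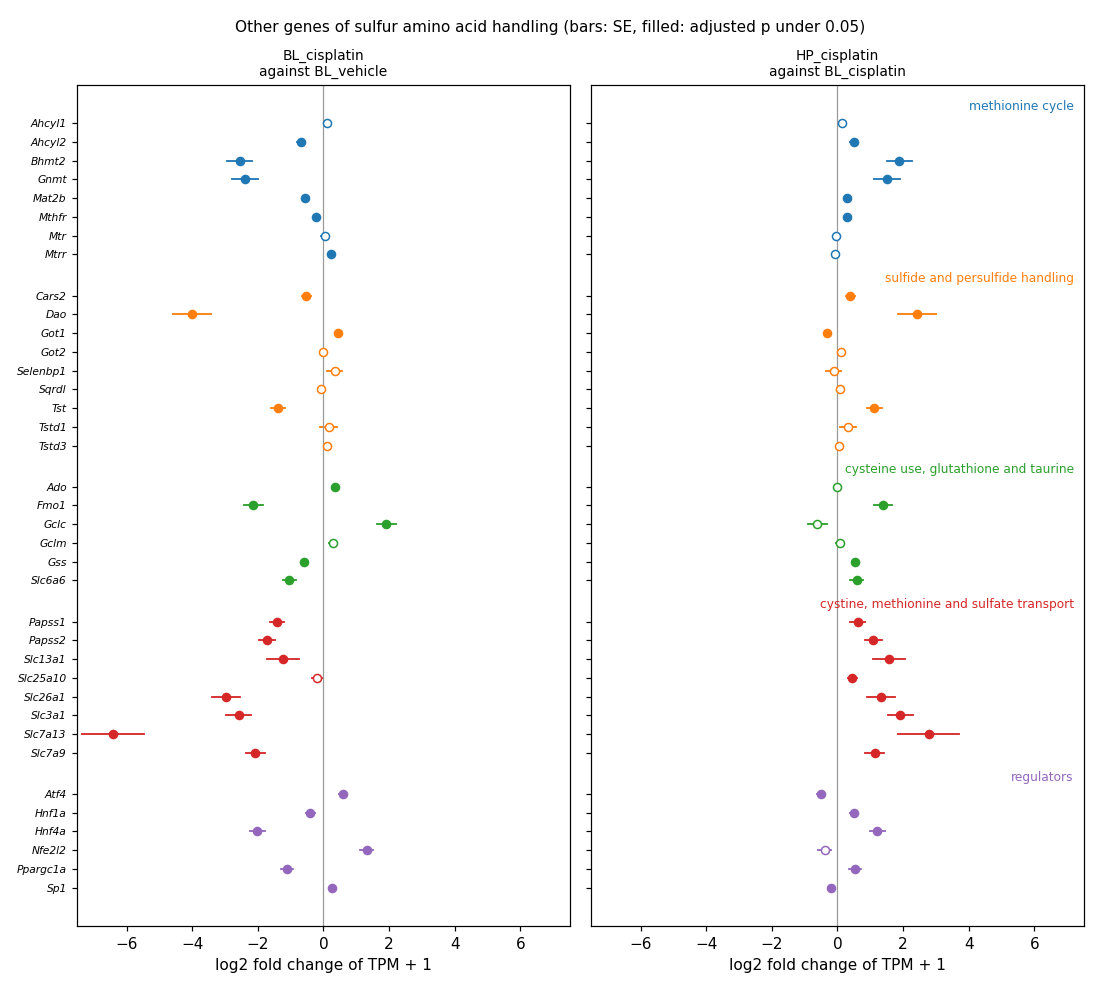
Log2 fold changes of TPM + 1 with SE for the 37 tested genes of the 5 lists, in BL_cisplatin against BL_vehicle and in HP_cisplatin against BL_cisplatin, filled where the adjusted p was under 0.05. All 8 transport genes lie to the left of 0 in the first panel and to the right in the second, and Gclc lies at 1.92 in the first.

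Several members share their position with other genes, and the sources used here do not state whether counting used strand. Csad overlaps the oppositely oriented Zfp740 by 1476 bases (mean of Zfp740 15.5 TPM), so reads there cannot be told apart if counting ignored strand. Overlaps here are of whole gene spans, and how much of them is exon was not examined. Smaller overlaps were those of Mat2a with Particl (508 bases), Ahcy with the antisense Gm45609 (317 bases) and Ethe1 with Zfp575 (99 bases). Cth overlaps Gm43314 on its own strand over 2231 bases, at a mean of 0.465 TPM for the latter. No value was corrected for these overlaps.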

How the data were processed

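The deposited table held TPM for 46078 genes in 16 libraries, made by the authors from reads of kidney RNA. STAR 2.5, featureCounts of Subread 1.5 and the builds mm10 and GRCm38 are named per the submitters' processing notes, while their settings, strand use and annotation release are not given in the sources used here. Groups came from the labels of injection and preconditioning, and replicate numbers follow accession order and pair nothing. The 15014 genes that reached 1 TPM in 4 or more libraries were fitted as log2(TPM + 1) with limma 3.58.1 in R 4.3.3 (statmod 1.5.0), 1 mean per group over all 16 libraries, with a trended and robust prior, 2-sided tests, and Benjamini-Hochberg adjustment at 0.05. The fit was tested on simulated data. A fold change on this scale understates the change of low genes.

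Whole reads were recovered from the TPM with GENCODE M21 exon lengths for 24571 of the 32198 genes above 0 (76.3%) and with a searched length for 7626, at a tolerance of 0.0001. Searched lengths are the smallest that give whole reads, so library totals are lower bounds. These reads were refitted with voom (16761 genes of a mean of at least 20 reads). The voom fit, the fit on libraries of the second title code and the ratios were added after the data had been seen. The members and gene lists were chosen with earlier results of these data known. The other alternatives were no filter or one of 5 TPM, a pseudocount of 0.1 TPM, the groups compared alone, the title code as a term, the 10 most abundant, mitochondrial and red blood cell genes left out, another prior, and each library left out. Genes named from a list are the 4 with the smallest adjusted p in BL_cisplatin against BL_vehicle, and genes named as alike are the 2 with the highest Pearson correlation of log2(TPM + 1) over 16 libraries (those for Cth are not reported here). Positions are (library - vehicle mean) / (BL_cisplatin mean - vehicle mean) of log2(TPM + 1). Promoter windows are RefSeq's on GRCm38.p6.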

Additional observations from a re-analysis of the deposited data

Results flagged for a closer look

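In 2 of the 36 sets of 4 libraries checked, 1 library stood far from the other 3, by Dixon's gap test at 95%, which chance passes in about 1 in 20 sets. Both were BL_cisplatin 4, with Csad at 17.0 TPM against 13.9 to 14.4 in BL_cisplatin 1 to 3, and Ahcy at 37.9 TPM against 33.5 to 34.1. Both values were still below every BL_vehicle library. BL_cisplatin 4 also held the highest sum of the adipocyte markers Adipoq, Plin1 and Fabp4, at 91.5 TPM, and their part in these values was not tested.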

How the results depend on the processing

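Under the alternatives, a member's direction and side of the threshold were kept in 210 of 216 cases for BL_cisplatin against BL_vehicle. Against BL_cisplatin they were kept in 215 of 216 cases for CR_cisplatin and 194 of 216 for HP_cisplatin. The counts were 190 of 225 for CR_cisplatin against HP_cisplatin, and 220 and 195 of 225 for CR_cisplatin and HP_cisplatin against BL_vehicle. In many of these cases the fold change could not move. Examples are a library left out from a group not compared, or another prior. These counts are thus no measure of how firm a result is. In the order BL_cisplatin against BL_vehicle, CR_cisplatin and HP_cisplatin against BL_cisplatin, CR_cisplatin against HP_cisplatin, and CR_cisplatin and HP_cisplatin against BL_vehicle, limma called 10032, 10100, 4420, 3642, 8 and 4398 genes. With a filter of 5 TPM, 6656 and 6728 genes were called in the first and second, where fewer genes were tested. With the title code as a term, the counts were 3413, 6327, 0 and 0 genes and 4 members in the first, 0 in the third and 0 in the fourth. Fitted on the groups compared alone, 0 genes passed in the third (4273 at an unadjusted p under 0.05), 0 in the fourth (4353), 80 in the fifth and 11 in the sixth, with 0 members in the third, 0 in the fourth and 0 in the sixth. Without a filter, 0 genes (8511 unadjusted) and 0 members passed in the fourth, 15 genes in the fifth and 1 member in the sixth. On libraries of the second title code only, the counts were 0 genes (4796 unadjusted) and 0 members in the fourth, 3 genes in the fifth, and 43 genes and 0 members in the sixth. The cause of these changes was not tested.

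Leaving out single libraries gave 9363 to 10454, 9390 to 10441, 2210 to 7156, 0 to 7654, 4 to 17 and 692 to 7709 genes, and 8 to 9, 8 to 8, 4 to 7, 0 to 5, 0 to 0 and 0 to 4 members, in the same order. Values that turned sign lay close to 0. Ethe1 in HP_cisplatin against BL_cisplatin was -0.046 with the most abundant transcripts left out and -0.11 with the title code. In CR_cisplatin against HP_cisplatin, Cth was -0.11 without HP_cisplatin 1 and from -0.11 to 0.40 over all libraries left out. In the same comparison, Mpst was -0.16 without HP_cisplatin 1 and from -0.16 to 0.29 over all libraries left out. In HP_cisplatin against BL_vehicle, Cth was 0.15 without HP_cisplatin 1 and from -0.35 to 0.15 over all libraries left out. In that comparison, Mpst was 0.19 without HP_cisplatin 1 and from -0.26 to 0.19 over all libraries left out. In CR_cisplatin against BL_vehicle, Mat2a was -0.000561 without CR_cisplatin 2 and from -0.000561 to 0.11 over all libraries left out. In it, Mpst was -0.032 without CR_cisplatin 3 and from -0.032 to 0.066 over all libraries left out. In it, Cdo1 was -0.029 without BL_vehicle 4 and from -0.029 to 0.10 over all libraries left out. Cdo1 was also -0.024 without CR_cisplatin 4 and -0.00617 without BL_vehicle 2. Leaving out abundant transcripts moved the median of all genes by 0.17, -0.17 and -0.12 in the first 3 comparisons, and the share of calls that were higher was 32% against 44.4% in the second and 30% against 55.5% in the third. With voom that share was 55.8% against 38.1% in the fourth, 37.5% against 25% in the fifth and 47.1% against 65.7% in the sixth. No paired analysis was possible because the labels number no replicates, so that no number is shared between groups. The lowest value of a member in any library was 5.70 TPM, for Suox, above the filter of 1 TPM.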

Other observations

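Slc7a11, the cystine carrier that supplies cysteine from outside the cell, was below the filter and was not tested, and is described here because of its values. It measured 0.0247, 0.0158, 0.00861 and 0.0309 TPM in BL_vehicle 1 to 4 and 1.08, 1.15, 0.727 and 0.861 in BL_cisplatin 1 to 4. The groups did not overlap, and the direction was that of Gclc and opposite to that of the other listed carriers. It measured 0.00384, 0.0142, 0.00954 and 0.0105 TPM in CR_cisplatin 1 to 4 and 0.914, 0.0996, 0.238 and 0.00548 in HP_cisplatin 1 to 4.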
